A study of Mus musculus with 32 samples.

Results

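Simple epithelial keratins are the intermediate filament proteins of single-layered epithelia. Krt7, Krt8, Krt18 and Krt19 were followed together with B3gnt6 while 3T3-L1 cells turned into fat cells. This mouse line of fibroblast character is used as a model of preadipocytes. The 5 genes were found by symbol among the 20560 genes of the deposited table, and all 5 were present. They were selected on measured values: Krt8 and B3gnt6 stood higher, and unevenly, in knockdown libraries at day 7, and the other keratins were added as their family. The choice has no threshold. Day 7 values of knockdown against control are therefore given as a description without a test, and the tests are those of days 0, 3 and 11 and of the control time course.

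Keratins form filaments only as pairs of a type I and a type II chain. Krt8 and Krt7 are type II chains, Krt18 and Krt19 are type I chains, and Krt8 with Krt18 is the pair that appears first in embryonic epithelium. Fibroblasts and fat cells build their filaments mainly from vimentin. B3gnt6 is not a keratin: it encodes a glycosyltransferase that makes the core 3 structure of mucin-type O-glycans, known from the lining of the colon.

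All 32 libraries came from 3T3-L1 cells. At each of days 0, 3, 7 and 11 there were 4 libraries of a scramble control short hairpin RNA (shCtrl, a wild type in the genotype label), 2 of shRNA #1 and 2 of shRNA #2, both of which target Zbtb9, a zinc finger and BTB domain gene. The titles number biological replicates, and nothing states that they were separate cultures, so p-values measure only the spread between these libraries. Day 0 was confluent cells before induction. Differentiation was then started with dexamethasone, isobutylmethylxanthine and insulin, the medium held only insulin from day 3, and no hormone was added from day 7. The labels call the cells preadipocytes or mature adipocytes by day, and do not say how the hairpins were delivered.

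Rebuilt depth ran from 22280157 to 31073768 reads in genes per library. The arms overlapped in depth at days 0, 3 and 7, but at day 11 the controls had 26486180 to 31073768 reads and the knockdown libraries 22839629 to 25511973. Zbtb9 itself had few reads: 14 to 18 in controls and 5 to 12 in knockdown at day 0, 6 to 12 and 0 to 9 at day 3, 11 to 23 and 5 to 8 at day 7, and 13 to 22 and 2 to 17 at day 11. By limma on the deposited log2 values Zbtb9 was called lower at day 7 (-0.35, adjusted p = 0.0288). It was not called at day 0 (-0.21, adjusted p = 0.271) or day 11 (-0.28, adjusted p = 0.173), and at day 3 it was under the filter on low values. At day 11 it was called lower for shRNA 2 (-0.49, adjusted p = 0.0228) and not for shRNA 1 (-0.08, adjusted p = 0.734). The library labelled shRNA 1 replicate 2 of day 11 had 19.3 normalized Zbtb9 reads, inside the range of its controls, and the day 11 results are given with and without it. At day 3 2 of the 4 libraries labelled knockdown, with 7.41 and 8.99, also lay inside the control range of 6.35 to 12.6. A value is a deposited log2 value unless it is called reads, and reads are whole reads rebuilt from those values. The deposited values draw rare genes towards their own mean, so that their differences are smaller than the folds in reads.

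Krt7, Krt8 and Krt18 lie in the type II keratin cluster of chromosome 15 (GRCm38, GENCODE M21), where Krt18 is the only type I gene. Krt8 spans chr15:101996698-102004482 on the minus strand and Krt18 chr15:102028180-102032027 on the plus strand, so that their starts face away from each other across 23698 bases. Krt7 spans chr15:101411043-101430313 on the plus strand. Krt19 lies in the type I cluster at chr11:100140810-100148665, minus strand, and B3gnt6 at chr7:98192417-98199481, minus strand. The RefSeq promoter table (GRCm38.p6) held 3 of the 5 genes. Each window runs from 250 bases before to 50 bases after the start of transcription in RefSeq, which lies inside the GENCODE gene span, 140 bases downstream of its upstream end for Krt8, 36 for Krt18 and 1360 for Krt7. Those of Krt8 and Krt18 are shown as the divergent neighbours that were both higher in knockdown, and that of Krt7 as the cluster member that was not. The windows are Krt8 chr15:102004293-102004592 (minus strand), Krt18 chr15:102027966-102028265 (plus strand) and Krt7 chr15:101412153-101412452 (plus strand). They are written 5′ to 3′ on the strand of the gene, and capitals mark matches to the motifs searched.
Krt8: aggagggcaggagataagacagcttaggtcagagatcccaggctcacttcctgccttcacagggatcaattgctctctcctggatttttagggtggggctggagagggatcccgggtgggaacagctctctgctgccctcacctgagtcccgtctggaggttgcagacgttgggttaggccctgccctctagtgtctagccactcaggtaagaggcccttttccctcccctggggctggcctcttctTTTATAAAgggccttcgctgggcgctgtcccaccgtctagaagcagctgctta
Krt18: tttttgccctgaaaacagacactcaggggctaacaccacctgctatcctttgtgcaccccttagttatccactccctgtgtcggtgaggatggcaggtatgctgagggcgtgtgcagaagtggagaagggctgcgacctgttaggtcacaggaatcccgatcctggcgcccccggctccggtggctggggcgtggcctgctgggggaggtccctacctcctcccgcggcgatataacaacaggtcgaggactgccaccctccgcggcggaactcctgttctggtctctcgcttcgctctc
Krt7: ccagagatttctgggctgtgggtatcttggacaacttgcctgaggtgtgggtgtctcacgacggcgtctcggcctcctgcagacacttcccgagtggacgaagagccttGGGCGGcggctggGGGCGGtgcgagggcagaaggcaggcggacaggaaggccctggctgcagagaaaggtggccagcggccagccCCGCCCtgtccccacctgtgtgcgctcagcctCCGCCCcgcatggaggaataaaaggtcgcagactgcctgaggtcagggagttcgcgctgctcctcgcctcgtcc

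Capitals in Krt8 are 2 overlapping matches to TATAAA, 1 on each strand, whose leftmost bases lie 1 and 3 bases before the RefSeq start, and 13.6% of 32851 promoter windows of the same length held that motif. Capitals in Krt7 are 4 matches to GGGCGG, a GC box, 2 on each strand, which 35.7% of windows held at least once. No match in these 3 windows was found to TTGCGCAA or TTGCNNCAA (C/EBP, 0.183% and 2.08% of windows), TGANTCA (AP-1, 7.81%), TGACGTCA (CRE, 1.79%), the direct repeat bound by PPAR with RXR (0.0396%) or the palindrome of the glucocorticoid receptor (0.475%). The search covered both strands. GC content was 58.0% for Krt8, 61.3% for Krt18 and 66.3% for Krt7, against a median of 52.7% over all windows.

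In control cells the members did not move as a group. Among the 4 keratins Krt7 had the most reads in undifferentiated cells: the 4 controls had 121, 95, 103 and 125 reads at day 0. It then had 3, 3, 2 and 2 reads at day 3, 31, 19, 27 and 12 at day 7 and 83, 57, 55 and 48 at day 11. The day 3 libraries were all at the floor of 3 reads or fewer, at least 31.5-fold lower than at day 0, and by day 11 Krt7 was still 1.83-fold lower. Against day 0 the log2 values fell by 2.23 at day 3 (SE 0.12, limma adjusted p = 4.23e-18). They were still lower by day 7, at -1.38 (SE 0.12, adjusted p = 3.18e-12), and by day 11, at -0.62 (SE 0.12, adjusted p = 3.51e-05). Most genes changed in this comparison, with 76.6%, 69.1% and 64.6% of 13421 genes called at days 3, 7 and 11, so a call by itself did not set Krt7 apart.

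Krt19 rose and fell again in controls. It had 1, 1, 5 and 0 reads at day 0, 9, 11, 13 and 6 at day 3, 55, 16, 16 and 17 at day 7 and 1, 2, 4 and 3 at day 11. The rise was 0.60 at day 3 (SE 0.17, limma adjusted p = 0.00220) and 1.18 at day 7 (SE 0.17, adjusted p = 4.40e-07), and at day 11 the difference from day 0 was 0.06 (adjusted p = 0.767). Krt19 passed the filter through the days where it was high: 4 controls reached it at day 3 and 4 at day 7, against 1 at day 0 and 0 at day 11. In the limma fit without a filter, which called 53.9% and 48.0% of all genes at days 3 and 7, its adjusted p was 0.00309 and 1.03e-06. Control replicate 1 at day 7 stood apart from the other three, whose reads were all 16 or 17.

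The other members were near absent from control cells. Krt18 had 0 reads in every control at days 0 and 3, then 12, 17, 5 and 2 at day 7 and 15, 7, 7 and 4 at day 11. It was under the filter of the time course fit. In the fit without a filter, which called 53.9%, 48.0% and 44.5% of all genes at days 3, 7 and 11, Krt18 was above day 0 by 0.59 on day 7 (adjusted p = 0.000176) and by 0.51 on day 11 (adjusted p = 0.00101). Krt8 had 1 read in all controls of days 0 and 3 together, 18, 1, 6 and 3 reads at day 7 and 0, 3, 4 and 0 at day 11. B3gnt6 had 0, 0, 1 and 0 reads at day 0, 4, 0, 0 and 3 at day 3, 6, 6, 6 and 1 at day 7 and 0 in each control at day 11. Neither Krt8 nor B3gnt6 was tested at day 7, and at days 3 and 11 their changes in the fit without a filter did not pass the threshold (adjusted p = 0.861 and 0.524 for Krt8, 0.105 and 0.887 for B3gnt6). With 4 or fewer reads in each of these libraries, smaller changes were not detectable at this depth.

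Before induction, and at day 3, knockdown cells had 5 reads or fewer of Krt8, Krt18 and B3gnt6. At day 0 the knockdown libraries held 0 reads of Krt18 each, 0 to 5 of Krt8, 0 or 1 of Krt19 and 0 or 1 of B3gnt6. Krt7 had 104 and 67 reads in shRNA 1 libraries and 81 and 110 in shRNA 2 libraries, and its difference from control was -0.22 (SE 0.13, limma adjusted p = 0.366), while 3.25% of 13216 genes were called. The other 4 members were under the filter at day 0, and in the fit without a filter none of them passed, with adjusted p from 0.584 (Krt8) upwards and 1.43% of all genes called.

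At day 3 only Krt19 passed the test among the members. It had 22 and 28 reads in shRNA 1 libraries, 16 and 21 in shRNA 2 libraries and 6 to 13 in controls, without overlap, a mean 2.28-fold above control. The difference was 0.56 (SE 0.13, limma adjusted p = 0.00677), at a time when 14.6% of genes were called higher and 12.1% lower, and 10.3% of all genes were higher without overlap. It was 0.69 for shRNA 1 (SE 0.16, adjusted p = 0.000709) and 0.42 for shRNA 2 (SE 0.16, adjusted p = 0.0464), in fits that called 39.4% and 31.4% of genes and 19.6% between the shRNAs. The shRNA 2 call was lost without the filter (adjusted p = 0.0687) and without shRNA 2 replicate 1 (0.0518) or 2 (0.381) or control replicate 1 (0.0761) or 4 (0.128). The shRNAs differed from each other by -0.28 (SE 0.19, adjusted p = 0.339). Krt7 was at the floor in both arms, with 2 and 0 reads for shRNA 1 and 0 in both shRNA 2 libraries. Krt8 had 4 and 1 reads in the shRNA 1 libraries and 0 in every other library of that day. Krt18 had at most 3 reads in any library, and B3gnt6 had 3, 4, 1 and 4 reads in knockdown against 0 to 4 in controls.

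At day 7, the day of the choice, 4 of the 5 members were higher in all knockdown libraries than in all controls, and Krt7 overlapped. At that time 30.1% of all genes did not overlap in one direction or the other, and 24.9% of the 13299 genes tested were called higher. Krt8 had 605 and 515 reads with shRNA 1, 44 and 102 with shRNA 2 and 18, 1, 6 and 3 in controls. The shRNA 1 libraries lay close together, at 606 ± 11.7 normalized reads (SD, n = 2), and the shRNA 2 libraries further apart, at 72.8 ± 37.6 (SD, n = 2). Against a control mean of 7.00 ± 7.40 (SD, n = 4), this is 86.5-fold for shRNA 1 and 10.4-fold for shRNA 2. The size of these folds rests on single libraries: without control replicate 1 they were 176 and 21.2, and without shRNA 2 replicate 2 the latter was 6.59. The log2 differences were 4.85 and 2.15. The shRNA 1 mean was 8.32-fold above the shRNA 2 mean, or 13.1-fold without shRNA 2 replicate 2.

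B3gnt6 had the same order of groups. It had 421 and 777 reads with shRNA 1, 60 and 101 with shRNA 2 and 6, 6, 6 and 1 in controls, which are group means of 664 ± 335 (SD, n = 2), 80.7 ± 25.1 (SD, n = 2) and 4.74 ± 2.39 (SD, n = 4) normalized reads. The folds over control were 140 and 17.0, and the log2 differences 4.62 and 2.22. The shRNA 1 mean was 8.24-fold above that of shRNA 2, but here the replicates of shRNA 1 were the ones that lay apart. Without shRNA 1 replicate 2 the fold over control was 90.1 and that over shRNA 2 was 5.30. B3gnt6 reads at this level rest on a setting of the rebuilding fitted to this gene alone: with the setting common to all genes the 4 knockdown libraries would have 340.2, 702.8, 54.9 and 83.3 normalized reads.

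The type I chains were less uneven. Krt18, the filament partner of Krt8, had 90 and 104 reads with shRNA 1, 64 and 74 with shRNA 2 and 12, 17, 5 and 2 in controls. That is 11.7-fold and 7.69-fold over control, with log2 differences of 2.01 and 1.60, and the shRNA 1 mean was 1.52-fold above the shRNA 2 mean. Krt19 had 275 and 207 reads with shRNA 1, 133 and 167 with shRNA 2 and 55, 16, 16 and 17 in controls, 9.84-fold and 5.73-fold over control, or 15.2-fold and 8.82-fold without control replicate 1. Its log2 differences were 2.50 and 1.88 and its shRNA 1 mean 1.72-fold above that of shRNA 2. Krt7 had 18 and 10 reads with shRNA 1, 11 and 20 with shRNA 2 and 31, 19, 27 and 12 in controls, with a difference of -0.25 and overlapping groups.

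The day 7 knockdown libraries held most of what was read of these genes in the whole experiment. They had 95.1% of all 1429 B3gnt6 reads, 85.9% of 1474 Krt8 reads, 72.9% of 1073 Krt19 reads, 54.6% of 608 Krt18 reads and 4.49% of 1313 Krt7 reads. The shRNA 1 libraries of that day alone had 83.8% of the B3gnt6 reads and 76.0% of the Krt8 reads. Zbtb9 had too few reads at day 7 to order the shRNAs, with 6 and 8 for shRNA 1 and 8 and 5 for shRNA 2. Its means were 7.68 ± 2.26 normalized reads with shRNA 1 and 6.63 ± 2.49 with shRNA 2 (SD, n = 2 each). The difference of -0.05 between the shRNAs had a limma adjusted p of 0.906. The part of the depth of knockdown in the uneven response was not tested.

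**Figure D1:**
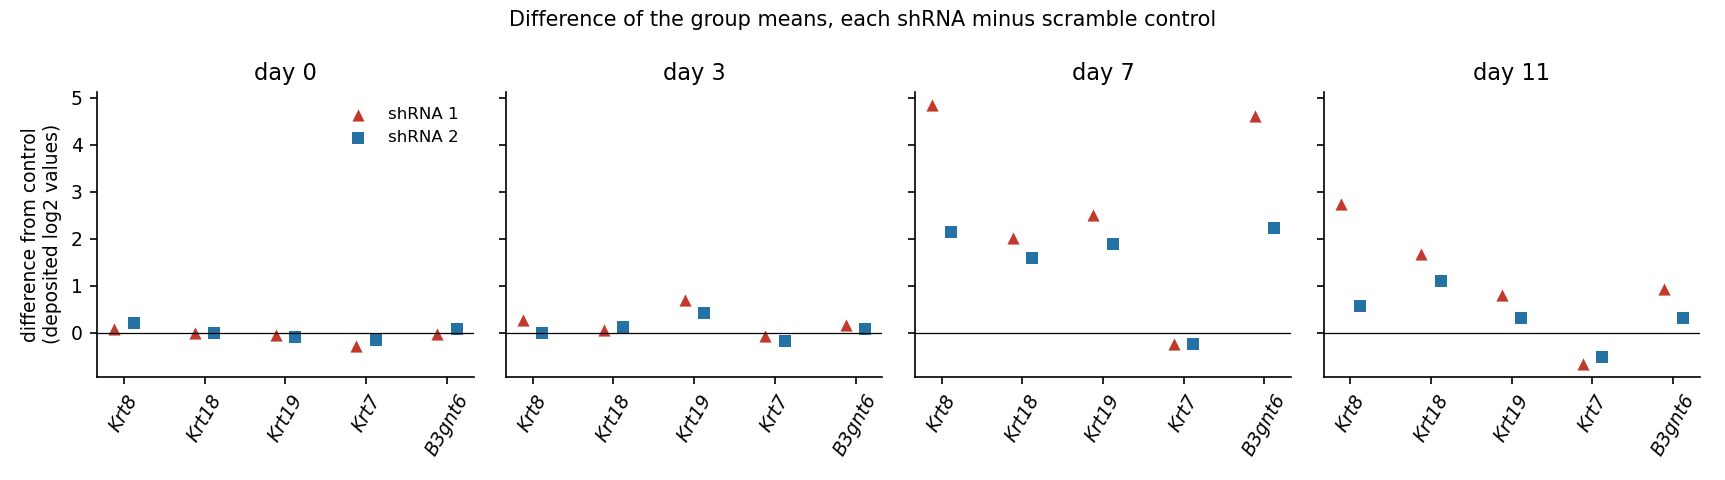
Difference of the group mean of deposited log2 values, shRNA 1 (red triangles) or shRNA 2 (blue squares) minus scramble control, for each member at each day. At day 7 the Krt8 points lie at 4.85 and 2.15 and the B3gnt6 points at 4.62 and 2.22, while the Krt7 points lie close together below 0 at days 7 and 11.

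The day 11 libraries were not used in the choice. All 5 members separated without overlap, 4 higher and Krt7 lower, where 12.0% of all genes were higher and 11.7% lower without overlap. Krt18 had 74 and 56 reads with shRNA 1, 45 and 28 with shRNA 2 and 15, 7, 7 and 4 in controls. Its difference was 1.39 (SE 0.18, limma adjusted p = 0.000169), 7.45-fold in mean normalized reads, in a comparison that called 33.0% of 13281 genes. Krt19 had 16, 13, 7 and 5 reads in knockdown against 1, 2, 4 and 3 in controls, a difference of 0.56 (SE 0.15, adjusted p = 0.0131) and 4.73-fold. Both passed the filter on low values through the group where they were high: at day 11 all 4 knockdown libraries reached it, against 1 control for Krt18 and 0 for Krt19. In the fit without a filter, which called 20.1% of 20560 genes, their adjusted p was 0.000287 for Krt18 and 0.0141 for Krt19. Krt7 went the other way, with 21, 26, 32 and 25 reads in knockdown and 83, 57, 55 and 48 in controls, a difference of -0.59 (SE 0.13, adjusted p = 0.00405) and 1.95-fold lower, and all 8 libraries reached the filter.

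Krt8 and B3gnt6 were under the filter at day 11, since fewer than 4 libraries reached it. Krt8 had 86 and 59 reads with shRNA 1, 10 and 5 with shRNA 2 and 0, 3, 4 and 0 in controls. In the fit without a filter its difference with both shRNAs in 1 group was 1.65 (SE 0.56, adjusted p = 0.0779) and did not pass. B3gnt6 had 14 and 9 reads with shRNA 1, 1 and 5 with shRNA 2 and 0 in each control, a difference of 0.62 (SE 0.16, adjusted p = 0.0178 in that fit), and at least 2.84-fold higher in mean normalized reads against a floor of 3 reads per library.

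By hairpin, shRNA 1 had the higher mean at day 11 for Krt8, Krt18, Krt19 and B3gnt6. In the fit without a filter the test of the difference passed for all but Krt18, and in the filtered fit, which holds only Krt18 and Krt19 of these, for Krt18. For Krt8, shRNA 1 was 2.73 above control (SE 0.16, adjusted p = 3.46e-07, no filter) and shRNA 2 was 0.56 above (SE 0.16, adjusted p = 0.0276, no filter), and the shRNAs differed by -2.16 (SE 0.19, adjusted p = 4.73e-05, no filter). The mean of shRNA 1 was 9.71-fold above that of shRNA 2, or 14.6-fold without shRNA 2 replicate 1. For Krt18, shRNA 1 was 1.67 above control (SE 0.17, adjusted p = 5.42e-07) and shRNA 2 was 1.10 above (SE 0.17, adjusted p = 8.29e-05). The shRNAs differed by -0.57 (SE 0.20, adjusted p = 0.0489), a call that was lost without the filter (adjusted p = 0.0680) and without shRNA 1 replicate 1 (0.179) or 2 (0.0923) or shRNA 2 replicate 2 (0.313).

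For Krt19 at day 11, shRNA 1 was 0.80 above control (SE 0.15, limma adjusted p = 0.000321) while shRNA 2, at 0.32 (SE 0.15, adjusted p = 0.102), did not pass. The direct difference of the shRNAs was -0.48 (SE 0.17, adjusted p = 0.0571), which passed only without the filter (adjusted p = 0.0377). For B3gnt6 in the fit without a filter, shRNA 1 was 0.92 above control (SE 0.11, adjusted p = 7.96e-05), shRNA 2 was 0.32 above (SE 0.11, adjusted p = 0.0685), and the shRNAs differed by -0.60 (SE 0.13, adjusted p = 0.0130). Krt7 fell with both, by 0.66 for shRNA 1 (SE 0.15, adjusted p = 0.00205) and by 0.52 for shRNA 2 (SE 0.15, adjusted p = 0.0129, or 0.128 without shRNA 2 replicate 2), and the shRNAs differed by 0.14 (SE 0.18, adjusted p = 0.622). The 3-group fit called 43.6% of genes for shRNA 1, 36.9% for shRNA 2 and 22.0% between the shRNAs, and without a filter 27.2%, 22.2% and 11.9%. These comparisons share the same 4 control libraries. Zbtb9 at day 11 had 8 and 17 reads with shRNA 1 and 2 and 4 with shRNA 2, so that the hairpin with the smaller keratin rise had the lower Zbtb9 reads on that day. The Zbtb9 difference between the shRNAs was -0.42 (SE 0.18, adjusted p = 0.120), and its part in the keratin values was not tested.

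Without the library labelled shRNA 1 replicate 2, and with no filter, the day 11 differences of knockdown from control were 1.32 for Krt18 (adjusted p = 0.000792), 0.49 for Krt19 (adjusted p = 0.0327), 0.56 for B3gnt6 (adjusted p = 0.0409) and -0.61 for Krt7 (adjusted p = 0.00862), all still called, and 1.34 for Krt8 (adjusted p = 0.182). Between the shRNAs, Krt8 (-2.34, adjusted p = 0.000333) and B3gnt6 (-0.71, adjusted p = 0.0287) were still called, and Krt19 (-0.51, adjusted p = 0.111) was not. The remaining shRNA 1 library is assumed to vary like the other groups.

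The means of day 11 lay below those of day 7 by different folds. Krt18 was 1.52-fold lower with shRNA 1 and 1.79-fold lower with shRNA 2. Krt8 was lower 7.82-fold and 9.13-fold, Krt19 16.7-fold and 23.7-fold, and B3gnt6 54.2-fold and 25.3-fold. For B3gnt6 with shRNA 1 the fold was 34.9 without replicate 2 of day 7. With shRNA 2 it was 15.2 or 75.9 without replicate 1 or replicate 2 of day 11, so there its order against Krt19 depends on single libraries. For Krt8 with shRNA 2 the fold was 5.79 without replicate 2 of day 7 and 13.7 without replicate 1 of day 11. Control means were lower at day 11 as well, 1.24-fold for Krt18, 4.24-fold for Krt8, 11.4-fold for Krt19 and at least 1.74-fold for B3gnt6. The direction for Krt18 turned, to a ratio of 0.869, without control replicate 2 of day 7. Without control replicate 1 of day 7 the values were 2.08 for Krt8 and 7.39 for Krt19, and without control replicate 3 of day 11 that of Krt8 was 7.5. Krt7 instead was 1.71-fold and 1.95-fold higher at day 11, and 2.42-fold in controls. These are ratios of mean normalized reads of separate libraries, and for Krt8 and B3gnt6 the starting point is the day on which they were chosen. The levels of Krt8 ordered as shRNA 1 at day 7, then shRNA 1 at day 11 and shRNA 2 at day 7, whose ranges overlapped (5.19 to 5.53 and 4.77 to 5.69), then shRNA 2 at day 11 and the day 7 controls, which also overlapped. The levels of Krt18 ordered as shRNA 1 and shRNA 2 at day 7, shRNA 1 and shRNA 2 at day 11 and then the controls of days 7 and 11, with the shRNA 2 day 7 range of 4.84 to 4.92 inside the shRNA 1 day 11 range of 4.78 to 4.96.

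Compared per kilobase of the main transcript, the make-up of the 4 keratins differed between the hairpins. At day 7 Krt8 stood at 309 ± 5.96 normalized reads per kilobase with shRNA 1 and 37.2 ± 19.2 with shRNA 2, Krt19 at 165 ± 17.5 and 95.9 ± 10.4, Krt18 at 73.8 ± 14.4 and 48.4 ± 2.44 and Krt7 at 3.65 ± 1.15 and 3.79 ± 1.37 (SD, n = 2 each). Krt8 was 56.1% of the 4 keratins in both shRNA 1 libraries, and 14.6% and 24.3% in the shRNA 2 libraries. The ratio of Krt8 to its partner Krt18 was 4.93 and 3.63 with shRNA 1, 0.505 and 1.01 with shRNA 2, and 1.10 and 0.881 in the 2 controls where both genes had more than 3 reads. By day 11 the ratio was 0.853 and 0.773 with shRNA 1 and 0.163 and 0.131 with shRNA 2, and 0.419 in the 1 control where both genes had more than 3 reads. The type II chains together were 1.3 times the type I chains in both shRNA 1 libraries at day 7, and 0.195 and 0.362 times in the shRNA 2 libraries. In day 11 controls, where Krt7 was the main keratin of the 4, that ratio was 1.83 to 2.52. These are levels of RNA, and protein was not measured.

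**Figure D2:**
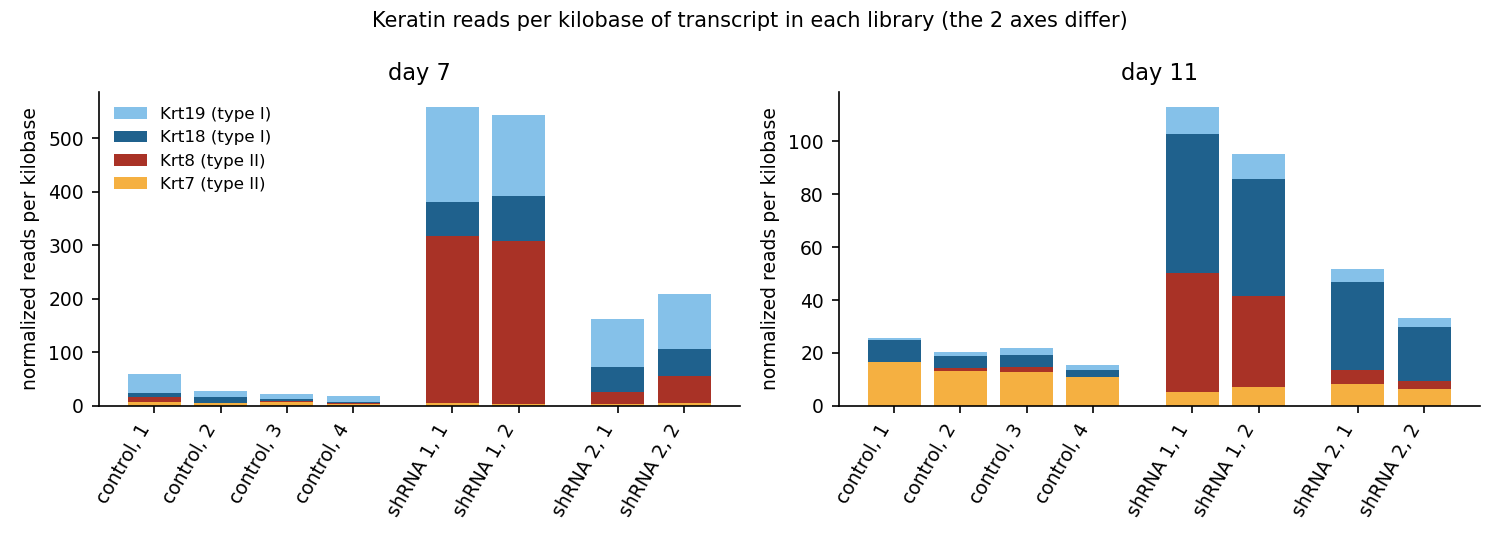
Normalized reads per kilobase of transcript of Krt7, Krt8 (type II, orange and red), Krt18 and Krt19 (type I, dark and light blue), stacked for each library at day 7 and day 11, with a separate vertical axis for each day. Krt8 is 56.1% of the stack in both shRNA 1 libraries at day 7, and Krt7 fills most of the control stacks at day 11.

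Other keratins of the table were followed as a fixed list of 21 genes, most of them rare: in day 7 controls 10 of the 21 had at most 3 reads in each library. Of the 6 that entered the day 7 fit, 3 were called higher in knockdown and none lower, where 24.9% of all genes were called higher and 22.6% lower, with a median difference of 0.73 against 0.01 over all genes. All 3 that were higher were the neighbours of Krt19 on one side, the type I genes Krt15, Krt13 and Krt36, which lie 4882, 19244 and 35184 bases from it. Krt15, a keratin of basal cells of stratified epithelia, had 625 and 560 reads with shRNA 1, 241 and 332 with shRNA 2 and 63 to 77 in controls, a difference of 2.33 (SE 0.28, limma adjusted p = 0.000165). Krt36, a hair keratin, was higher by 1.35 (SE 0.16, limma adjusted p = 7.18e-06), with 30 to 58 reads in controls and 108 to 259 in knockdown. Krt13, a keratin of internal stratified epithelia, was higher by 1.29 (SE 0.13, limma adjusted p = 8.88e-07). Krt15 and Krt13 were highest at day 3 in both arms and lower by day 7. Mean normalized reads of Krt15 fell from 1619 at day 3 to 70.2 at day 7 in controls, and from 1856 to 465 in knockdown. Those of Krt13 fell from 435 to 62.5 and from 373 to 185, while Krt36 went from 20.1 to 46.6 and from 14.6 to 171. On the other side of Krt19, Krt9, Krt14 and Krt16 had at most 11 reads in any day 7 library, and Krt9 had 6, 4, 3 and 11 reads in knockdown against 0, 2, 3 and 0.

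Krt15 also differed between hairpins, but not as Krt8 did. At day 7 shRNA 2 was 1.09 below shRNA 1 (SE 0.14, limma adjusted p = 4.98e-06), whereas the shRNAs differed by -0.14 for Krt13 (adjusted p = 0.635) and by 0.47 for Krt36 (adjusted p = 0.0985). For Krt15 the gap was there before induction: at day 0 it had 260 and 322 reads with shRNA 1, 19 and 21 with shRNA 2 and 56 to 61 in controls, so that the shRNAs lay on opposite sides of control. Between the shRNAs 35.0% of genes were called at day 0 and 16.4% at day 7. At day 11 only Krt36 was called among the 6 other keratins in the fit, at 0.64 (SE 0.15, adjusted p = 0.00597), where 16.8% of all genes were called higher. Krt15 differed from control by 0.04 with both shRNAs in 1 group (adjusted p = 0.906), but the hairpin means again lay on opposite sides: shRNA 1 was at 0.48 (SE 0.17, adjusted p = 0.0298) and shRNA 2 at -0.39 (SE 0.17, adjusted p = 0.0804), with 20 and 29 reads, 2 and 6 reads, and 9 to 22 in controls.

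**Figure D3:**
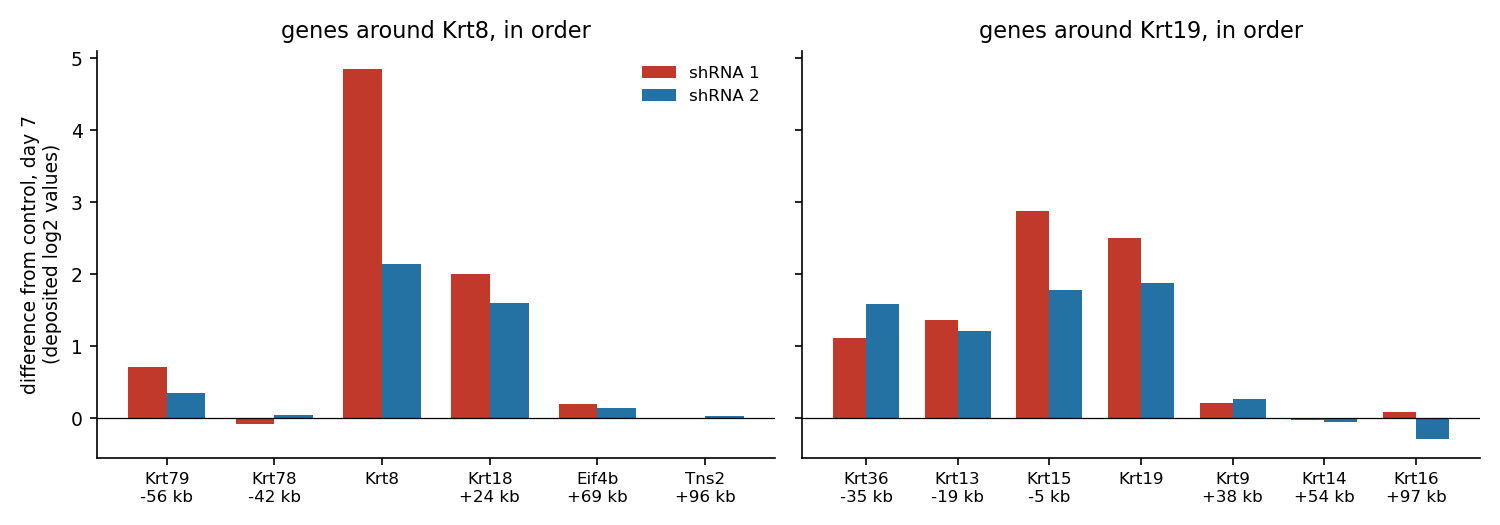
Difference of deposited log2 values from control at day 7 for shRNA 1 (red) and shRNA 2 (blue), for genes around Krt8 (left) and Krt19 (right) in chromosome order, with the distance between the gene bodies in kilobases. Krt8 with Krt18 and Krt36, Krt13, Krt15 and Krt19 have the highest points, and the means of Krt79 and Krt9, rare genes of the flanks, were also above control with both hairpins, by 0.71 and 0.35 and by 0.21 and 0.27.

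Around Krt8 and Krt18 the flanking genes outside the pair had smaller differences. Eif4b, a translation initiation factor gene 41746 bases beyond Krt18, differed by 0.18 at day 7 (SE 0.06, limma adjusted p = 0.0153) and by 0.31 at day 11 (SE 0.08, adjusted p = 0.00860). Tns2, the next gene, differed by 0.00 for shRNA 1 and 0.04 for shRNA 2 at day 7. On the side of Krt8, Krt78 had at most 14 reads in any library of that day and overlapped control, and Krt79 had 24, 16, 8 and 12 reads in knockdown against 2, 4, 1 and 2, without overlap. Its means were 15.7 ± 7.13 and 2.33 ± 1.29 normalized reads (SD, n = 4 each), although the shrunken log2 differences were 0.71 for shRNA 1 and 0.35 for shRNA 2. Beside Krt7, Krt80 had 142 to 280 reads in controls and 202 to 269 in knockdown at day 7, a difference of 0.14 (SE 0.12, adjusted p = 0.386).

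Most other markers of epithelial cells had few or no reads. Of 24 epithelial markers 18 were in the table, and 11 of these had at most 3 reads in each of the day 7 knockdown libraries, as did 11 in the day 7 controls. Epcam had at most 4 reads in any of the 32 libraries, and Cdh1, the gene of E-cadherin, at most 18. Summed over the list, controls had 61.2 to 83.2 and knockdown libraries 97.6 to 147.1 normalized reads at day 7, and 84.6 to 118.7 and 123.8 to 178.6 at day 11. That rise was Elf3 alone: in the other 17 genes, a sum taken after the values were seen, controls had 58.9 to 75.1 and knockdown libraries 27.8 to 50.7 at day 7, and 82.7 to 114.0 and 57.4 to 84.0 at day 11. Only 2 of the list entered the day 7 and day 11 fits, Elf3 only because all 4 knockdown libraries reached the filter, against 2 controls at day 7 and 1 at day 11. Elf3, an epithelial transcription factor of the ETS family, rose by 1.81 at day 7 (SE 0.19, limma adjusted p = 1.70e-06) and by 2.12 at day 11 (SE 0.17, adjusted p = 4.49e-06), or adjusted p = 1.66e-05 and 1.05e-05 in the fit without a filter, while Cgn, the tight junction protein cingulin, fell by 0.79 and 0.68 (adjusted p = 0.00105 and 0.00833). The lower sum of the 17 genes without Elf3 lay largely in Cgn. Its mean normalized reads were 39.1 in controls and 14.5 in knockdown at day 7, and 60.9 and 30.7 at day 11.

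Elf3 reads were 47 and 67 with shRNA 1, 48 and 109 with shRNA 2 and 0, 8, 9 and 2 in controls at day 7, and 82, 51, 89 and 113 against 2, 5, 2 and 9 at day 11. The difference between its hairpins did not pass the test, at 0.20 at day 7 (SE 0.24, limma adjusted p = 0.653) and 0.44 at day 11 (SE 0.20, adjusted p = 0.126). Mesothelial markers, of which 6 of 9 were in the table, summed to 1257 to 1480 normalized reads in day 7 controls and 1627 to 2097 in knockdown, and at day 11 to 632.9 to 742.8 and 402.8 to 635.9. Msln, which had 27068 of the reads of this list over all libraries, was higher by 0.48 at day 7 (SE 0.08, adjusted p = 0.000102) and lower at day 11, by -0.64 (SE 0.11, adjusted p = 0.000929). The part of other cell types in the keratin values was not tested. In bulk RNA, few cells with much keratin RNA and many cells with little cannot be told apart.

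Fat cell genes were higher in knockdown at days 7 and 11, and already at day 3, when only Krt19 among the members was called. All 11 adipocyte markers that entered the fit were called higher in knockdown at days 3 and 7 and 10 of 11 at day 11, with median differences of 0.90, 1.93 and 1.90, while 14.6%, 24.9% and 16.8% of all genes were called higher. At day 7 the 12 markers summed to 50378 to 54884 normalized reads in controls, 138221 and 165821 with shRNA 2 and 203005 and 208045 with shRNA 1. At day 11 the hairpins overlapped, with 120741 and 144399 for shRNA 1 and 118773 and 132139 for shRNA 2. Much of this sum was Lpl, with a mean of 67500 normalized reads in day 11 knockdown. Lpl also had 18700 in day 0 controls, where the 12 markers summed to 19722 to 20319, so the sum is a coarse measure of differentiation. Preadipocyte and fibroblast markers were called lower for 8 of 10 genes at day 7 and 6 of 10 at day 11, against 22.6% and 16.2% of all genes. The part of the differentiation state in the keratin values was not tested.

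Of 8 other filament genes in the fits, 5 were called lower and 1 higher at day 7, and 3 lower and 1 higher at day 11. Over all genes 22.6% were lower and 24.9% higher at day 7, and 16.2% and 16.8% at day 11. The one that rose was Des, the muscle filament protein desmin, by 0.75 and 0.77 (SE 0.09 and 0.08, limma adjusted p = 7.13e-06 and 2.42e-05), and Synm, the filament protein synemin, fell most, by 1.34 and 1.07 (adjusted p = 5.46e-08 and 0.00246). Vim, the filament gene of fibroblasts, had mean normalized reads from 53931 (shRNA 2, day 3) to 150586 (controls, day 7). Among plakins and desmosome genes, which anchor keratin filaments, 2 of 11 were called higher and 4 lower at day 7, with Pkp2 at 0.69 (SE 0.11, adjusted p = 0.000112) and Plec at -0.77 (SE 0.05, adjusted p = 1.53e-08), and 2 higher and 3 lower at day 11, counts to be read against the same shares of all genes.

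The relatives of B3gnt6 had smaller differences. Of 6 other B3gnt genes with deposited values, 4 entered the day 7 fit, with B3gnt8 higher by 0.44 (SE 0.12, limma adjusted p = 0.00649), B3gnt9 lower, at -0.69 (SE 0.08, adjusted p = 6.30e-06), and 2 not called. Of 17 mucin-type O-glycan enzymes in the fit 5 were higher and 7 lower at day 7, with a median difference of -0.03, and the rises included St3gal4, a sialyltransferase, at 0.63 (SE 0.06, adjusted p = 4.98e-07), and the falls Gcnt4, a branching enzyme, at -0.80 (SE 0.08, adjusted p = 8.01e-07). At day 11 3 were higher and 5 lower. Over all genes 24.9% were higher and 22.6% lower at day 7, and 16.8% and 16.2% at day 11. Mucins, which carry such glycans, had few reads: of 8 that were present, Muc1 alone entered the fits and was not called against control at any day. The neighbours of B3gnt6 on chromosome 7 had smaller differences at day 7, with Myo7a at 0.91 (SE 0.11, adjusted p = 6.19e-06) and Acer3 at 0.49 (SE 0.08, adjusted p = 6.46e-05).

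Across the 32 libraries Krt8 followed B3gnt6 with a Pearson r of 0.93, Krt18 with 0.88, Krt19 with 0.83 and Krt7 with -0.19, as a description of libraries that share days and arms. Within day and arm the first 3 coefficients were 0.83, 0.62 and 0.73, and that with Krt7 rounded to 0. The knockdown arm held both hairpins, so these deviations still include the difference between shRNA 1 and shRNA 2. At day 7 that difference was part of the choice of Krt8 and B3gnt6. Among 12114 named genes, those most like Krt8 were Acsm3 (r = 0.969), an acyl-CoA synthetase gene, Apoc3 (0.954), an apolipoprotein gene, Slc22a20 (0.941), an organic anion transporter gene, B3gnt6 (0.932) and Fam126b (0.915). Those most like B3gnt6 were Krt8 (0.932), Ufsp2 (0.917), Sucla2 (0.909), Apoc3 (0.909) and Pex5 (0.909). Krt8 and B3gnt6 were both selected on day 7, and those libraries are among the 32, so their likeness in part restates the choice. Apoc3 shows how the likeness looked: its normalized reads at day 7 were 16.3 ± 6.22 in controls (SD, n = 4), 212 ± 15.4 with shRNA 1 and 75.2 ± 3.93 with shRNA 2 (SD, n = 2 each), and 1.59 ± 0.905, 47.3 ± 13.9 and 9.57 ± 9.02 at day 11. Acsm3 had 7.88 ± 4.49, 143 ± 24.8 and 40.9 ± 20.7 at day 7. With correlation of the deviations within day and arm, none of the 5 genes most like Krt8 and 1 of the 5 most like B3gnt6 were the same. With log2 of normalized reads plus 1, 1 of the 5 most like Krt8 and none of those most like B3gnt6 were the same, and neither gene was among the 5 of the other. The names depend on the measure.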

How the data were processed

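Libraries were made from total RNA with an Illumina TruSeq RNA kit, per the labels' protocols. TopHat2 2.1.0, Bowtie2 2.2.6, SAMtools 1.3.1 and HTSeq 0.6.1 are named in the submitters' processing notes, and the genome build, the annotation and the use of strand are not given in the sources used here. The authors deposited 1 log2 value per gene and library, which the file names normalized counts. The deposited log2 values ran from -1.56 to 17.99 and look like the output of a regularized log, though no header says so. Inverting that form gave values near whole reads, with 99.1% of them within 0.1 of one. Without fitting, 20% would be by chance, but the settings were fitted to come close to whole reads, so the 2 shares are not alike. Simulated reads were rebuilt exactly, but they were made by the same form with the fitted settings, and with every gene on the common trend. Normalized reads are rebuilt reads divided by the size factor of the library. B3gnt6 needed a setting of its own, 1.46 times the trend, after which 31 of 32 libraries were within 0.1. Intervals and floors cover counting error only, since without molecular identifiers several reads can stem from 1 molecule.

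The deposited values were tested with limma 3.58.1 in R 4.3.3, with a mean-variance trend, robust empirical Bayes and Benjamini-Hochberg adjustment over the genes tested. An adjusted p below 0.05 was the call. The filter asked for 4 or more libraries in which the value, taken back from the log2 scale, reached 10, and for members under this filter the p of the planned fit without it is given as such. Each day had a 2-group fit (knockdown and control) and a 3-group fit (each shRNA and control), and the 16 controls had 1 fit over time. Against a group with 3 reads or fewer in each library, a fold is a lower bound set at 3 reads per library. On simulated day 11 data with 200 changed genes among 13364, 100% were recovered and 4.76% of calls were false. The median ratio of estimated to true difference was 0.913 there. These values describe the simulation only. Recovery and false calls at the low reads and hairpin gaps of the members were not tested. Libraries were grouped by their titles. Same-numbered libraries had correlations of their deviations from 0.00 to 0.22, with 3 of 24 pairs over 0.1, so the numbers were not used to pair them.

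The members and gene lists were chosen with earlier results of these data known. Named beside the members were Zbtb9, the 5 genes most correlated with Krt8 and with B3gnt6, up to 2 called genes in each direction per list with no overlap of groups, other keratins that passed the filter, and neighbours by position. Krt9, Krt14, Krt16, Krt78, Krt79, Epcam, Cdh1, Vim and Muc1 are named outside that rule, some as neighbours and some after their values were seen. Gm671 (77 shared exon bases) and Gm36026 (101) overlap Krt7 and Krt8 in GENCODE M21. Alternatives were other filters, moderation, scaling, a replicate block, rebuilt reads, voom, 1 fit of all libraries and leaving out single libraries.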

Additional observations from a re-analysis of the deposited data

Results flagged for a closer look

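In the day 7 controls, Krt19 was highest in replicate 1, at 5.06 against 3.96 to 4.13 in the other three, a gap larger than Dixon's criterion for 4 values allows. Without it the knockdown difference of Krt19 at day 7 was 2.45 in place of 2.19. In the same group B3gnt6 was lowest in replicate 4, at 2.56 against 2.90 to 2.92, which is 1 read against 6 in each other control. About 1 in 20 groups would be marked by chance. The shRNAs differed by test at day 11 for Krt8 (-2.16, shRNA 2 minus shRNA 1), Krt18 (-0.57) and B3gnt6 (-0.60), of which those of Krt8 and B3gnt6 come from the fit without a filter. In that limma fit Krt18 was not called (adjusted p = 0.0680) and Krt19 was (-0.48, adjusted p = 0.0377).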

How the results depend on the processing

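Of 724 alternatives of 95 results on members, 658 kept direction and side of the threshold or stayed within the spread, 38 moved, 21 lost and 5 gained a call, and 2 changed sign. The sign changes were Krt7 between the shRNAs at day 7, at -0.11 without shRNA 1 replicate 2 and -0.14 without shRNA 2 replicate 2, in a range of -0.14 to 0.17 over single libraries left out. Rebuilt reads undo the shrinkage, so at day 7 the knockdown differences of Krt8, B3gnt6, Krt18, Krt19 and Krt7 became 5.13, 5.43, 3.40, 3.06 and -0.51 in log2 of normalized reads plus 1, and 5.25, 5.50, 3.46, 3.07 and -0.53 with voom. Voom also called Krt7 at day 3 (-1.98, adjusted p = 0.0483), where no library had more than 3 reads. With the replicate block, which the numbers do not warrant as pairing, Krt19 was not called at day 3 (0.53, adjusted p = 0.0785) or day 11 (0.65, adjusted p = 0.0922), and the genes called for knockdown were 0, 845, 4112 and 1652 at days 0, 3, 7 and 11 in place of 430, 3506, 6328 and 4382 by limma, with 1067 genes at an unadjusted p under 0.05 at day 0. One fit of all 32 libraries called 2409 at day 0 and 6792 at day 11, and the fit without trend and robust moderation called 261 at day 0. Leaving out single libraries gave 111 to 562 genes called at day 0. The causes were not tested. Krt19 at day 11 could not be tested without any 1 knockdown library, since it then missed the filter. B3gnt6 had a mean of 372 normalized reads in day 7 knockdown, and 295 with the common setting, an alternative chosen after seeing the data. Depth limits Krt8, Krt18 and B3gnt6 at days 0 and 3, where each library had 5 reads or fewer.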
